A study of Mus musculus with 12 samples.

Results

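The genes of the proteasome were followed across 4 groups of mouse myeloid progenitor cells: cells with empty vectors, cells with mutant CSF3R, cells with mutant CEBPA, and cells with both. A gene was taken as a member if its symbol is Psm, then a letter from a to g, then a number with or without a last letter. This takes in the subunits of the 20S core and the 19S cap, the assembly factors and the activators. The arrays measured 48 such genes, each by 1 probe set, among 22206 gene probe sets. RefSeq holds 49 symbols of this form, and Psmb5, a constitutive catalytic subunit, had no named probe set and is not analysed here. The immunoproteasome subunits Psmb8, Psmb9 and Psmb10 are described apart from the rest.

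The proteasome degrades proteins that carry ubiquitin chains. Its 20S core is a barrel of stacked rings with catalytic sites inside, and the 19S cap recognises, unfolds and feeds in the substrate. In cells of the immune system and under interferon, the catalytic subunits encoded by Psmb5, Psmb6 and Psmb7 are replaced in newly built cores by those of Psmb8, Psmb9 and Psmb10, and the resulting immunoproteasome favours peptides that fit major histocompatibility complex (MHC) class I molecules.

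All cells came from 1 HoxB8-ER line, progenitors kept immature by an estrogen-dependent HoxB8 protein, so the 3 replicates per group, A, B and C, share that origin. Controls carried empty MSCV-IRES-GFP and empty MSCV-IRES-mCherry. The other groups carried human CSF3R_T618I, an active mutant of the granulocyte colony-stimulating factor receptor, human CEBPA_V314VW, an in-frame insertion mutant of a myeloid transcription factor, or both, with CSF3R_T618I in the mCherry vector and CEBPA_V314VW in the GFP vector, so that every group carried a pair of retroviral vectors beside HoxB8-ER. Cells positive for both fluorescent proteins were sorted, and RNA was taken 24 hours after estrogen was removed from every group, controls included. GeneChip Clariom S Mouse arrays, 12 in all, gave 1 log2 signal per probe set, and p-values measure the spread between these arrays.

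The arrays correlated at 0.987 to 0.995 within groups, and the mean of 23 background controls ran from 4.98 to 5.27, highest on replicate C of CSF3R_T618I and replicate C of the cells with both. The mouse Cebpa probe set read 11.90 to 12.40 on the 6 arrays with CEBPA_V314VW and 10.60 to 11.07 on the other 6. The mouse Csf3r probe set read 11.67 to 12.16 on arrays with CSF3R_T618I and 10.88 to 11.49 on those without. Both order the arrays as labelled, and how far these probes read the human genes was not tested. The progenitor genes Kit, Cd34, Mpo and Elane were read at 9.70 or more on every array. Of 7 measured lymphoid markers, 6 stayed on every array below 8.11, the 95th percentile of the intron controls, which stand for sequence not kept in mature RNA; the exception was Nkg7.

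Of the 48 proteasome genes, none rose in any comparison, save that with array quality weights 1, Psma5, rose in CSF3R_T618I against CEBPA_V314VW. Fits were made with limma over all probe sets, and a gene was called at a Benjamini-Hochberg adjusted p below 0.05. In cells with both mutations against empty vector, 3 members fell, Psmb8, Psmb9 and Psmg4. That is 6.25% of the members, where 2.3% of all gene probe sets fell and 3.16% rose. The same 3 genes fell in cells with both against CEBPA_V314VW, with 3.08% of all probe sets lower and 3.56% higher. In CSF3R_T618I against CEBPA_V314VW, 2 members fell, Psmb8 and Psmb9, or 4.17%, below the 5.27% of all probe sets that fell and with 5.42% higher.

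The other comparisons held no called member. In CSF3R_T618I against empty vector, limma called 0 members while 3.74% of all probe sets rose and 2.63% fell. At an unadjusted p below 0.05 stood 4 of 48 members and 3821 of all 22206 probe sets. In CEBPA_V314VW against empty vector it called 0 members beside 1.02% higher and 0.95% lower. Below 0.05 unadjusted stood 2 members and 2091 of all probe sets. In cells with both against CSF3R_T618I it again called 0 beside 0.748% higher and 0.851% lower. Here 2 members and 2274 of all probe sets stood below 0.05 unadjusted. The interaction asks whether the CSF3R_T618I effect differs with and without CEBPA_V314VW. It called 0 members beside 0.113% of probe sets higher and 0.212% lower. Below 0.05 unadjusted stood 1 member, Psmb9, and 1333 of all probe sets. In the pairwise comparisons 2091 to 4732 of all probe sets stood below 0.05 unadjusted, a background also for such counts given later. Any difference among the 4 groups was called for 2 members, Psmb8 and Psmb9, and for 10.1% of all probe sets. These comparisons share arrays, so their counts are not independent of one another. In bulk RNA, fewer cells of a type and less RNA per cell cannot be told apart.

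No member reached a 2-fold change in any pairwise comparison. With that limit added, the call rule gave 0 members throughout. Over all probe sets it called 1.71% for CSF3R_T618I against empty vector, 0.608% for CEBPA_V314VW against empty vector and 1.72% for both against empty vector. It called 0.509% for both against CSF3R_T618I, 1.97% for both against CEBPA_V314VW, 2.66% for CSF3R_T618I against CEBPA_V314VW and 0.257% for the interaction. The member with the widest change was Psmb9, 1.62-fold lower with both mutations than with CEBPA_V314VW alone.

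**Figure D1:**
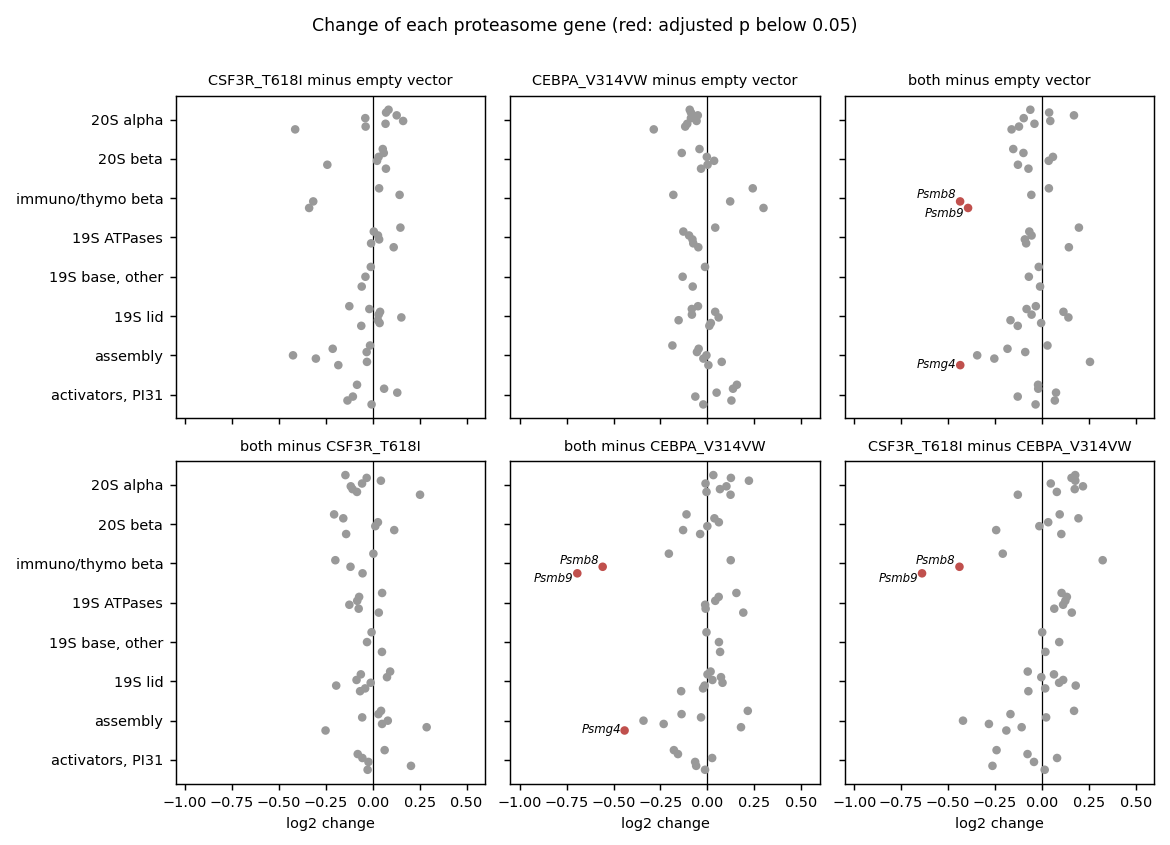
Log2 change (x axis) of each of the 48 proteasome genes, by role (y axis), in the 6 pairwise comparisons; each point is 1 gene and red marks an adjusted p below 0.05. The red points are Psmb8 and Psmb9 in 3 panels and Psmg4 in 2 of those, all to the left of 0.

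The constitutive 26S subunits stayed close to one level in all groups. These are 30 genes: 7 alpha ring genes, 6 constitutive beta ring genes, 6 ATPases of the 19S base, 3 other base subunits and 8 lid subunits. Averaged over the 30 genes, the log2 signal was 10.57 ± 0.04 (SD, n = 3) on empty vector arrays, 10.60 ± 0.04 with CSF3R_T618I, 10.52 ± 0.05 with CEBPA_V314VW and 10.55 ± 0.05 with both. The array averages lay between 10.46 and 10.64. No gene of the 30 was called in any comparison, and the smallest adjusted p among them was 0.226, for Psma5 in CSF3R_T618I against CEBPA_V314VW, the change called with array quality weights. At an unadjusted p below 0.05 stood 0 to 1 of the 30, depending on the comparison, beside 1333 to 4732 of the 22206 gene probe sets.

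The precision of these arrays bounds what could have moved. Of the 180 95% intervals, 1 per gene and pairwise comparison, 178 lay within 0.5 log2 units of 0, or 1.41-fold, a width chosen after the values were seen. Both exceptions were Psmb6, whose intervals reached to -0.52. The widest change of the 30 genes was also that of Psmb6, -0.24 in CSF3R_T618I against CEBPA_V314VW, or 1.18-fold. The group means of a typical gene of the 30 spanned 0.13 (median), against 0.26 for 2552 gene probe sets. These 2552 lay between the quartiles of signal of all 48 members, 9.43 to 10.89, while the 30 genes ran from 9.41 to 11.91. The median residual SD of the 30 and of the 2552 was near, 0.10 and 0.12.

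Within these small values the directions leaned together by comparison. In CSF3R_T618I against CEBPA_V314VW, 25 of the 30 genes had a positive change with a median of 0.09, where 48.9% of all gene probe sets were positive and their median was -0.01. In CEBPA_V314VW against empty vector, 7 of 30 were positive with a median of -0.07, where 49.4% of all were positive and their median was 0.00. The array averages of the 30 genes were 10.55, 10.46 and 10.55 with CEBPA_V314VW, in the order A, B, C, so replicate B lay lowest. They were 10.59, 10.60 and 10.52 with empty vector, and the 2 groups overlapped. In both against empty vector, 9 of 30 were positive with a median of -0.05, beside 43.8% and -0.03 over all. These are counts of genes that share their arrays, and no member of the group passed the test.

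By role, shared directions and widest changes were these. The alpha ring genes, whose ring gates the core, were all lower in CEBPA_V314VW than in empty vector. That is 8 of 8 with Psma8 included, at a median of -0.09. Their widest change was that of Psma8, given in the next paragraph. The 6 ATPases that unfold substrate were all higher in CSF3R_T618I than in CEBPA_V314VW, from 0.07 to 0.16, and Psmc1 gave their widest value, 0.20 ± 0.12 (SE) in both against empty vector at an adjusted p of 0.456. The 3 other base subunits were all lower in CSF3R_T618I, CEBPA_V314VW and both than in empty vector, at medians of -0.04, -0.08 and -0.02. All 3 were higher in CSF3R_T618I than in CEBPA_V314VW, at a median of 0.02. Over all gene probe sets 47.7%, 49.4%, 43.8% and 48.9% were positive in these comparisons, in that order. Of these subunits Psmd2, a scaffold for substrate shuttles, gave -0.13 ± 0.11 in CEBPA_V314VW against empty vector with an adjusted p of 0.869. Of the lid, which holds the deubiquitinase Psmd14, Psmd6 gave -0.19 ± 0.11 in both against CSF3R_T618I with an adjusted p of 0.622.

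Psma8, the alpha subunit of germ cell proteasomes, was near background. Its signal was 5.61 to 5.93 on empty vector arrays, 5.16 to 5.71 with CSF3R_T618I, 5.44 to 5.62 with CEBPA_V314VW and 5.25 to 5.92 with both, and all 4 groups overlapped. Its lowest change, -0.41 ± 0.18 in CSF3R_T618I against empty vector, had an adjusted p of 0.263. Psma8, Psmb11, Psmg3 and Psmg4 were the 4 members that stayed below the intron controls' 95th percentile on every array.

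**Figure D2:**
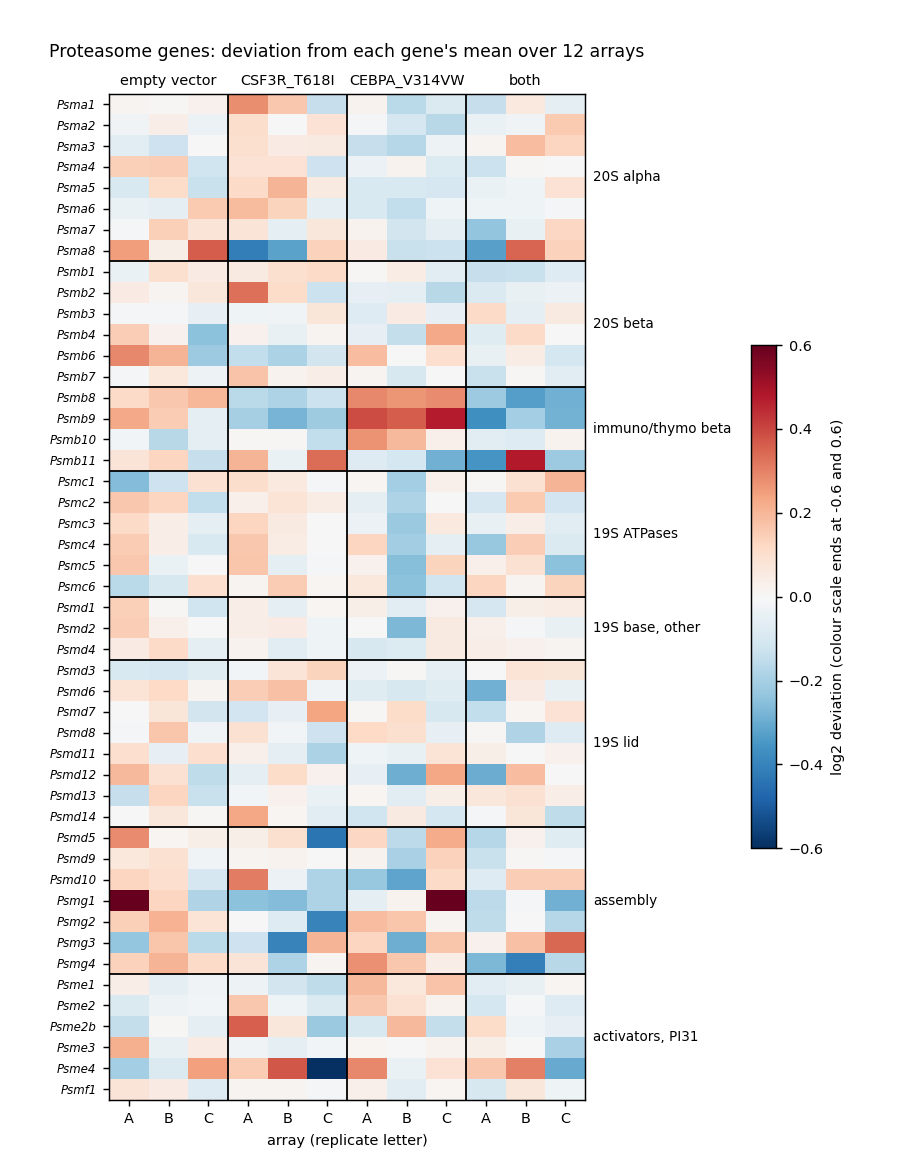
Log2 deviation of each proteasome gene from its own mean, in colour, for the 12 arrays (columns, grouped by cells) and 48 genes (rows, grouped by role). Psmb8 and Psmb9 are blue on all 6 arrays with CSF3R_T618I and red on the 3 with CEBPA_V314VW alone, while most rows of the core and cap are pale.

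Of the catalytic pairs, the constitutive partners were Psmb6 and Psmb7. Psmb6, which encodes the caspase-like subunit that Psmb9 replaces, read 11.27, 11.19 and 10.77 on empty vector arrays, 10.84, 10.79 and 10.87 with CSF3R_T618I, 11.17, 10.98 and 11.08 with CEBPA_V314VW, and 10.94, 11.03 and 10.88 with both, in the order A, B, C. Replicate C of the empty vector lay below every other array, and the change against empty vector was -0.24 ± 0.13 for CSF3R_T618I at an adjusted p of 0.381. Without that array it was -0.40 with an adjusted p of 0.0703, and the change in cells with both against empty vector was -0.28 in place of -0.13. Psmb7, the trypsin-like subunit that Psmb10 replaces, read 10.54, 10.61 and 10.52, then 10.72, 10.57 and 10.59, then 10.56, 10.45 and 10.55, then 10.41, 10.55 and 10.48 in the same order. Its widest change was -0.14 ± 0.09 for both against CSF3R_T618I, adjusted p 0.711, with an interval from -0.35 to 0.06. RefSeq lists pseudogenes of Psma5, Psmb6 and Psmb7, and signal from near-identical copies cannot be told apart here.

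Psmb8 and Psmb9, the immunoproteasome subunits that take the chymotrypsin-like and caspase-like sites, fell with both mutations against either of empty vector and CEBPA_V314VW, and with CSF3R_T618I against CEBPA_V314VW. Psmb8 read 10.17, 10.22 and 10.26 on empty vector arrays, 9.90, 9.87 and 9.93 with CSF3R_T618I, 10.35, 10.32 and 10.34 with CEBPA_V314VW, and 9.84, 9.73 and 9.77 with both. No groups overlapped, so the order from low to high was both, CSF3R_T618I, empty vector, CEBPA_V314VW. Psmb8 fell 1.35-fold in both against empty vector, a change of -0.44 ± 0.09 with an adjusted p of 0.00853. It fell 1.47-fold in both against CEBPA_V314VW, -0.56 ± 0.09 with an adjusted p of 0.00128, and by 0.44 ± 0.09 in CSF3R_T618I against CEBPA_V314VW with an adjusted p of 0.00493. These calls held with each array left out in turn.

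For CSF3R_T618I against empty vector the Psmb8 change was -0.32 ± 0.09, with an adjusted p of 0.051. The 3 CSF3R_T618I arrays lay below the 3 controls, and the residual SD of the gene, 0.04, was under the median of 0.19 over all probe sets, which the moderated test draws it towards. The adjusted p was 0.0233 when dim probe sets were left out before the fit, 0.00573 with array quality weights and 0.00973 with trended, robust variances, but 0.135 with only those groups in the fit and 0.0566 to 0.156 with single arrays left out. Between neighbours in the order, both minus CSF3R_T618I was -0.12 ± 0.09 (adjusted p 0.749) and CEBPA_V314VW minus empty vector was 0.12 ± 0.09 (adjusted p 0.82), so neither difference passed the test although the arrays did not overlap.

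Psmb9 followed the same order. It read 9.10, 9.03 and 8.83 on empty vector arrays, 8.68, 8.60 and 8.67 with CSF3R_T618I, 9.27, 9.24 and 9.35 with CEBPA_V314VW, and 8.51, 8.68 and 8.60 with both. Only the groups with CSF3R_T618I alone and with both overlapped. Psmb9 fell 1.62-fold in both against CEBPA_V314VW, -0.69 ± 0.10 with an adjusted p of 0.000783, and 1.56-fold in CSF3R_T618I against CEBPA_V314VW, -0.64 ± 0.10 with an adjusted p of 0.00103. Both calls held with each array left out in turn.

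The fall of Psmb9 in both against empty vector was nearer the threshold. It was 1.31-fold, -0.39 ± 0.10, with an adjusted p of 0.0426. The call was lost when any single array was left out, except replicate C of the empty vector or replicate C of CSF3R_T618I. With single arrays left out the adjusted p ran from 0.0259 to 0.198. It was 0.0939 with median centring and 0.0864 without the 2 arrays of highest background. For CSF3R_T618I against empty vector the change was -0.34 ± 0.10 with an adjusted p of 0.0777, and without replicate C of the empty vector, the lowest control array, it was -0.42 with an adjusted p of 0.0464. CEBPA_V314VW minus empty vector was 0.30 ± 0.10, adjusted p 0.268, with the 3 arrays above the 3 controls.

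Psmb10, the third immunoproteasome subunit, was not called in any comparison. It read 8.99, 8.84 and 8.95 on empty vector arrays, 9.01, 9.01 and 8.86 with CSF3R_T618I, 9.28, 9.20 and 9.03 with CEBPA_V314VW, and 8.94, 8.93 and 9.02 with both. The 3 CEBPA_V314VW arrays lay above all others, at 0.24 ± 0.10 over empty vector with an adjusted p of 0.459. In both against empty vector the change was 0.04, with an interval from -0.18 to 0.26. Whether its change differed from that of Psmb9 was not tested. Psmb11, the subunit of thymic epithelium, read 5.82 to 6.65 over all arrays, near background.

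**Figure D3:**
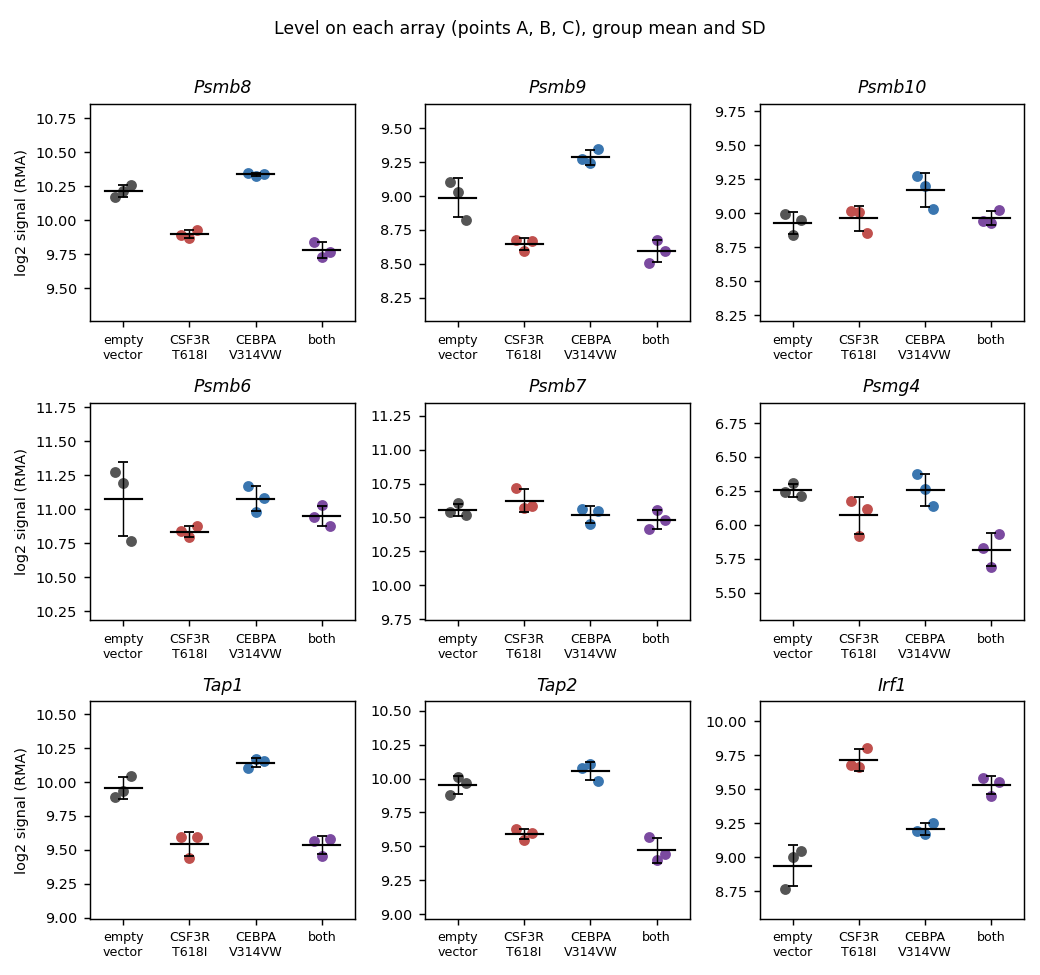
Log2 signal (y axis) on each array (points, replicates A, B and C from left to right) for 9 genes in the 4 groups, with the group mean as a bar and its SD (n = 3); each panel spans 1.6 log2 units. The points of Psmb8, Psmb9, Tap1 and Tap2 lie lower in both groups with CSF3R_T618I than in the other groups, those of Irf1 lie higher, and most groups of Psmb6, Psmb7 and Psmb10 overlap.

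Psmb8 and Psmb9 are neighbours. In RefSeq, assembly GRCm38.p6, Psmb9, Tap1, Psmb8 and Tap2 follow one another on chromosome 17 with no gene between them, next to the MHC class II genes H2-DMb1 and H2-Ob. Psmb9 and Tap1 point away from each other with 225 bases between their starts. The promoter windows of RefSeq, 250 bases before the start and 50 after it, are shown for these neighbours because they are what Psmb9 and Tap1 share and what Psmb8 has of its own. In the Psmb8 window, chr17:34197945-34198244 on the plus strand, capitals mark the letters TTCNNNGAA of a STAT site, 97 bases before the start.
Psmb8: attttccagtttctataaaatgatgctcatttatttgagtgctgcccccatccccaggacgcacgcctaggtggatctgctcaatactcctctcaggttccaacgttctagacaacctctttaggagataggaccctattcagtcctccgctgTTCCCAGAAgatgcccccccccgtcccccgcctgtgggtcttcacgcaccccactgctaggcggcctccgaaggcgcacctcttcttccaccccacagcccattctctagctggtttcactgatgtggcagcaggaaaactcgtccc
In the Psmb9 window, chr17:34187281-34187580 on the minus strand, capitals mark the 225 bases between the start of Psmb9 and that of Tap1.
Psmb9: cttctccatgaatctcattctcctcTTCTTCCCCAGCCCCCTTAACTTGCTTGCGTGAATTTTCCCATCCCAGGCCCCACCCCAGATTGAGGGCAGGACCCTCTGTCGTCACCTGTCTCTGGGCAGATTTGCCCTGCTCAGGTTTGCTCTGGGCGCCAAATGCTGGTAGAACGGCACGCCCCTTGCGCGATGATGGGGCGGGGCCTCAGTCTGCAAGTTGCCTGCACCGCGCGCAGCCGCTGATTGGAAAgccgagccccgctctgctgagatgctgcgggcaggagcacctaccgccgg

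Tap1 and Tap2 encode the transporter that carries proteasome products into the endoplasmic reticulum, and both fell in the comparisons of CSF3R_T618I, and of both mutations, with empty vector and with CEBPA_V314VW. Tap1 read 9.89, 9.93 and 10.04 on empty vector arrays, 9.59, 9.44 and 9.60 with CSF3R_T618I, 10.10, 10.17 and 10.16 with CEBPA_V314VW, and 9.57, 9.46 and 9.58 with both. Tap1 fell in CSF3R_T618I against empty vector, -0.41 ± 0.10 with an adjusted p of 0.0209, and in both against empty vector, -0.42 ± 0.10 with an adjusted p of 0.019. Each of these calls was lost without replicate B or C of the empty vector, the first also without replicate B of CSF3R_T618I and the second without replicate B of both, at adjusted p up to 0.098 and 0.0851. The groups with and without CSF3R_T618I did not overlap.

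Tap2 read 9.88, 10.01 and 9.97 on empty vector arrays, 9.63, 9.55 and 9.60 with CSF3R_T618I, 10.07, 10.11 and 9.98 with CEBPA_V314VW, and 9.57, 9.40 and 9.45 with both. It fell in both against empty vector, -0.48 ± 0.09 with an adjusted p of 0.00727, with each array left out too. In CSF3R_T618I against empty vector it fell by 0.36 ± 0.09 with an adjusted p of 0.0383, a call that held only when replicate B of CEBPA_V314VW or an array with both mutations was the one left out, and whose adjusted p rose to 0.156. Against CEBPA_V314VW, Tap1 fell by 0.60 and Tap2 by 0.46 in CSF3R_T618I, with adjusted p of 0.000977 and 0.00572, and Tap1 by 0.61 and Tap2 by 0.58 in cells with both, with adjusted p of 0.00126 and 0.00168.

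Of the other antigen processing genes, H2-K1 and H2-D1 fell and Tapbpl rose. Of 11 measured genes of that list, which holds Tap1 and Tap2, 1 rose and 2 fell in CSF3R_T618I against empty vector, at a median of -0.31 beside -0.01 over all probe sets. In both against empty vector 0 rose and 2 fell, at a median of -0.34 beside -0.03. Against CEBPA_V314VW, 1 rose and 4 fell in CSF3R_T618I at a median of -0.28, and 1 rose and 4 fell in cells with both at a median of -0.31, the 4 being Tap1, Tap2, H2-K1 and H2-D1 each time. The class I heavy chain H2-K1 fell in both against CEBPA_V314VW, -0.60 ± 0.12 with an adjusted p of 0.00834, and H2-D1 by 0.43 ± 0.12 with an adjusted p of 0.0412. The H2-D1 call held only without replicate C of CSF3R_T618I or replicate A of both, and its adjusted p reached 0.146. In CSF3R_T618I against CEBPA_V314VW the H2-D1 adjusted p was 0.0462, held only without replicate A or C of both. Tapbpl, a peptide editor for class I molecules, rose in CSF3R_T618I against CEBPA_V314VW, 0.83 ± 0.14 with an adjusted p of 0.00147. Its rise against empty vector, 0.53 ± 0.14 with an adjusted p of 0.0428, held only when replicate A or B of CEBPA_V314VW or replicate C of both was left out, and its rise in cells with both against CEBPA_V314VW, 0.66 ± 0.14, had an adjusted p of 0.0104, or 0.052 without replicate C of CEBPA_V314VW. In CEBPA_V314VW against empty vector, and in both against CSF3R_T618I, none of the 11 was called by limma, with 2 and 0 at an unadjusted p below 0.05.

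**Figure D4:**
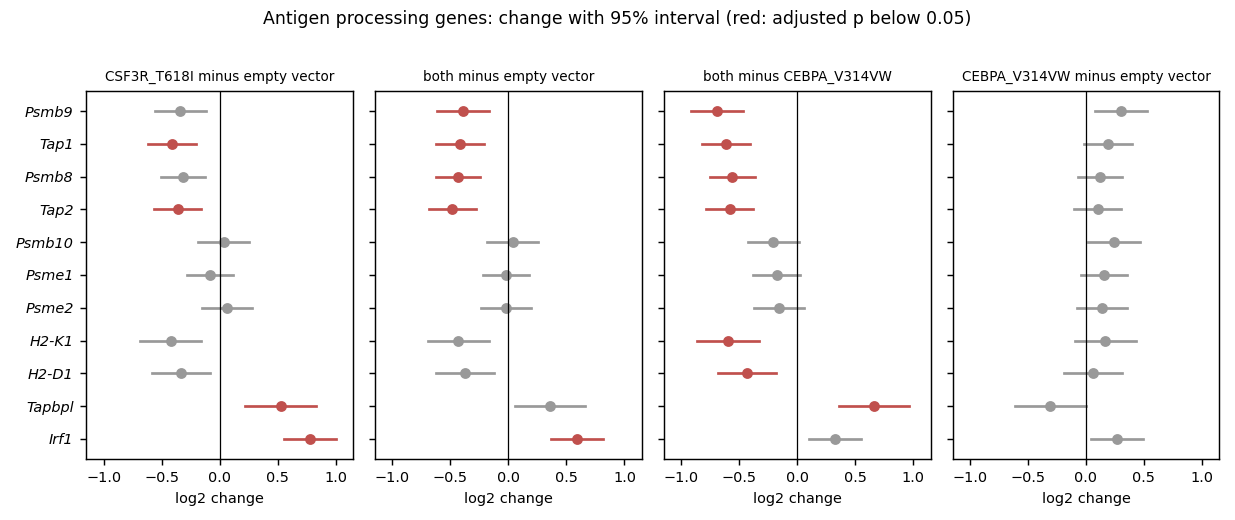
Log2 change (x axis) with its 95% interval for the immunoproteasome genes, the 11S activators and other antigen processing genes and Irf1 (y axis) in 4 comparisons; red marks an adjusted p below 0.05. Psmb9, Tap1, Psmb8 and Tap2, at the top, lie left of 0 in the first 3 panels, with Psmb10, Psme1 and Psme2 nearer 0 and Irf1 to the right.

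Irf1, an interferon-induced transcription factor that acts on Psmb9 and Tap1 in interferon-treated cells, rose with CSF3R_T618I. It read 8.77, 9.0 and 9.05 on empty vector arrays, 9.68, 9.66 and 9.81 with CSF3R_T618I, 9.19, 9.17 and 9.25 with CEBPA_V314VW, and 9.58, 9.45 and 9.56 with both, with no overlap of groups. Irf1 rose in CSF3R_T618I against empty vector, 0.78 ± 0.10 with an adjusted p of 0.000359, and in both against empty vector, 0.59 ± 0.10 with an adjusted p of 0.00329, also with each array left out. Of the 17 measured interferon response genes, 4 rose and 0 fell in each of these comparisons, at medians of 0.19 and 0.18. Over all probe sets 3.74% and 3.16% rose, at medians of -0.01 and -0.03. Irf1 and Irf9 rose in each of them, Oas2 and Gbp2 in the first, and Irf7 and Socs1 in the second. With single arrays left out, Irf1, Oas2 and Irf7 kept their calls, while the adjusted p of Irf9 reached 0.0528 in the first and 0.171 in the second, that of Gbp2 0.175 and that of Socs1 0.12. Irf9, Oas2, Gbp2, Irf7 and Socs1 lay below the intron controls' 95th percentile on every array. In both against CEBPA_V314VW 1 rose and 0 fell, in CSF3R_T618I against CEBPA_V314VW 3 rose and 1 fell, in both against CSF3R_T618I 0 rose and 1 fell, and in CEBPA_V314VW against empty vector none was called, with 5 at an unadjusted p below 0.05. Nlrc5, which drives class I genes, had no named probe set and is not analysed here.

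The 11S activator genes were not called in any comparison. Psme1 and Psme2, whose products form a cap that opens the core and are interferon-induced, lie on chromosome 14 with only Emc9 between them. Psme1 read 12.18, 12.08 and 12.12 on empty vector arrays, 12.11, 12.03 and 11.99 with CSF3R_T618I, 12.34, 12.21 and 12.31 with CEBPA_V314VW, and 12.07, 12.10 and 12.16 with both. The CEBPA_V314VW arrays lay highest, and CSF3R_T618I minus CEBPA_V314VW was -0.24 ± 0.09 with an adjusted p of 0.133, or 0.028 with array quality weights and 0.00988 with trended, robust variances. Psme2 read 9.34, 9.40 and 9.41, then 9.59, 9.40 and 9.34, then 9.59, 9.52 and 9.45, then 9.32, 9.42 and 9.35 in the same order of groups. Its widest change was -0.16 ± 0.10 for both against CEBPA_V314VW with an adjusted p of 0.47. Psme2b is a close copy of Psme2, and their probes may share signal.

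Psme3, the nuclear activator, and Psmf1, an inhibitor of the core in the test tube, were not called. Psme4, which encodes a large nuclear activator that promotes degradation of histones, had the widest residual spread of the members, with signals of 8.77 to 9.22 on empty vector arrays, 9.13, 9.34 and 8.0 with CSF3R_T618I, 8.94 to 9.26 with CEBPA_V314VW and 8.67 to 9.27 with both. Replicate C of CSF3R_T618I, 1 of the 2 arrays of highest background, stood alone. CSF3R_T618I minus CEBPA_V314VW was -0.26 ± 0.29 with an adjusted p of 0.69, and 0.15 without that array.

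Among the assembly factors, Psmg4 fell where both mutations were present. Psmg1 to Psmg4 encode chaperones that build the alpha ring, and Psmd5, Psmd9 and Psmd10 encode chaperones of the 19S base. Psmg4 read 6.24, 6.31 and 6.22 on empty vector arrays, 6.18, 5.91 and 6.12 with CSF3R_T618I, 6.38, 6.26 and 6.14 with CEBPA_V314VW, and 5.83, 5.69 and 5.93 with both. The cells with both lay below the empty vector and CEBPA_V314VW arrays, and overlapped with CSF3R_T618I, whose replicate B was at 5.91.

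Psmg4 fell 1.35-fold in both against empty vector, -0.44 ± 0.11 with an adjusted p of 0.0385, and 1.36-fold in both against CEBPA_V314VW, -0.44 ± 0.11 with an adjusted p of 0.0308. The first call was lost without any 1 of the empty vector arrays, replicate B of CEBPA_V314VW, or replicate A or B of both, with an adjusted p of up to 0.147. The second was lost without replicate A or B of CEBPA_V314VW or of both, with an adjusted p of up to 0.14. With trended, robust variances the adjusted p were 0.0888 and 0.0727. Both minus CSF3R_T618I was -0.25 ± 0.11 with an adjusted p of 0.46, and the interaction for Psmg4 was -0.26 ± 0.16 with an adjusted p of 0.986. The signal of Psmg4 was below the intron controls' 95th percentile on every array, so its fold is a change of a dim probe set.

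The other assembly factors were not called. All 7 were lower in CSF3R_T618I than in empty vector, at a median of -0.18 beside -0.01 over all probe sets, and 5 of 7 were lower in both than in empty vector, also at a median of -0.18. Psmg1 and Psmg2, which form 1 of the chaperone pairs and were singled out after their values were seen, gave the widest of these. Psmg1 read 10.47, 9.96 and 9.65 with empty vector and 9.59, 9.57 and 9.65 with CSF3R_T618I, a change of -0.43 ± 0.20 with an adjusted p of 0.313. Psmg2 read 9.90, 9.97 and 9.84 against 9.76, 9.68 and 9.36, a change of -0.30 ± 0.12 with an adjusted p of 0.194. The 3 control arrays of Psmg1 lay further apart than its group means did.

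Whether the CSF3R_T618I effect on these genes differed with CEBPA_V314VW was tested by the interaction. For Psmb8 it was -0.24 ± 0.12 with an adjusted p of 0.91, for Psmb9 -0.35 ± 0.14 with an adjusted p of 0.744, and for Psmb10 -0.24 ± 0.14 with an adjusted p of 0.986. The interval for Psmb9, from -0.67 to -0.04, lay below 0 before adjustment over all probe sets. No difference between the effects was called.

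Of 8 measured proteasome genes with symbols of another form, limma called 0 in any pairwise comparison, with 0 to 2 at an unadjusted p below 0.05, and Zfand5, a stress-induced activator, had the widest change, 0.43 ± 0.14 in CSF3R_T618I against CEBPA_V314VW with an adjusted p of 0.0856. Of 8 measured regulators of proteasome genes, among them Nfe2l1, the factor that raises proteasome genes when the proteasome is inhibited, 0 were called, with 0 to 1 at an unadjusted p below 0.05. Their widest change was that of Ngly1, the enzyme that removes sugars from Nfe2l1, at -0.40 ± 0.18 in CSF3R_T618I against empty vector with an adjusted p of 0.28. Of 8 measured ubiquitin, shuttle factor and p97 genes, 1 fell, Ubqln4, a carrier of ubiquitinated proteins. The median of these 8 was -0.26 in CSF3R_T618I against empty vector, with 2 of 8 positive, and -0.22 in CSF3R_T618I against CEBPA_V314VW, beside -0.01 over all probe sets in each. On the CSF3R_T618I arrays Vcp read 11.05, 10.94 and 10.0 and Uba6 8.89, 8.88 and 8.44, in the order A, B, C. Both were lowest on replicate C, 1 of the 2 arrays of highest background, while Ubqln2, at 8.49, 8.54 and 8.68, was highest there. The medians of this list were not refitted without that array. Ubqln4 fell in CSF3R_T618I against CEBPA_V314VW, -0.47 ± 0.10 with an adjusted p of 0.00559, also with each array left out. It fell near the threshold in CSF3R_T618I against empty vector and in both against CEBPA_V314VW, at adjusted p of 0.0398 and 0.0456. In these last comparisons single arrays left out lost the call in 9 and 10 of 12 cases, at adjusted p of up to 0.154 and 0.13.

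Markers of other cell types were counted in the same comparisons, for which the shares of all gene probe sets called are given above. Of 8 measured markers of monocytes, macrophages and dendritic cells, 2 rose and 0 fell in CSF3R_T618I against empty vector and in both against empty vector, Csf1r and Adgre1 in each, at list medians of -0.01 and -0.03. In cells with both against CEBPA_V314VW 3 rose and 1 fell, and in CSF3R_T618I against CEBPA_V314VW 2 rose and 1 fell. The mean signal of the list was 6.33 to 6.37 on empty vector arrays, 6.46 to 6.74 with CSF3R_T618I, 6.17 to 6.37 with CEBPA_V314VW and 6.44 to 6.70 with both. Of its genes 5, Cx3cr1, H2-Ab1, Flt3, Itgax and Ciita, stayed below the intron controls' 95th percentile on every array. Csf1r exceeded that level only on replicate A of CSF3R_T618I, at 8.45, and Adgre1 only on replicate A of both, at 8.13. Of the 10 progenitor and granule genes, 1 rose and 3 fell in CSF3R_T618I against empty vector and 1 rose and 2 fell in both against empty vector. Kit and Cd34 were among those that fell, and the gene that rose was Csf3r, then Cebpa, whose human forms the vectors carry. In cells with both against CEBPA_V314VW 2 rose and 3 fell, and in CSF3R_T618I against CEBPA_V314VW 3 rose and 4 fell. The mean of the 8 genes other than Cebpa and Csf3r was 12.70 to 12.74 on empty vector arrays, 12.15 to 12.25 with CSF3R_T618I, 12.47 to 12.53 with CEBPA_V314VW and 12.16 to 12.19 with both. This mean joins genes that moved differently. In CEBPA_V314VW against empty vector 1 of the 10 rose and 3 fell, with 4 changes positive and 6 negative. Elane averaged 12.15 in CEBPA_V314VW cells and 13.18 in controls, and Ms4a3 12.48 and 12.85. Cd34 averaged 11.49 and 11.46 in these groups, and Myb 12.86 and 12.70. In CSF3R_T618I cells, Cd34 and Myb averaged 10.08 and 12.14, and Elane and Ms4a3 13.36 and 12.83. Of 7 eosinophil, basophil and mast cell markers 1 fell, Cpa3, in CSF3R_T618I and in both, against empty vector and against CEBPA_V314VW. In CSF3R_T618I against CEBPA_V314VW 2 also rose. In CEBPA_V314VW against empty vector 1 fell, Mcpt8, at group means of 10.33 and 11.53. Of 7 lymphoid markers 2 fell against empty vector in CSF3R_T618I and in cells with both, Nkg7 and Cd79b. Nkg7 alone fell in these 2 groups against CEBPA_V314VW, and in both against CSF3R_T618I. In CEBPA_V314VW against empty vector none of the 7 was called, with 2 at an unadjusted p below 0.05. Of 5 erythroid and megakaryocyte markers limma called 0 in any pairwise comparison, with 0 to 2 at an unadjusted p below 0.05. The part of these values in the fall of Psmb8 and Psmb9 was not tested.

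Promoter letters were searched as a description. RefSeq windows were at hand for 41 genes of the symbol form, 40 of them measured, among 27025 genes with 1 window each, and both strands were read. The antioxidant response element core TGACNNNGC, to which Nfe2l1 and Nfe2l2 bind, was in 6 of 41 windows, 14.6%, and in 12.5% of all. Psmb5 and Psmb6 were among the 6. The STAT letters TTCNNNGAA were in 3 of 41 windows, 7.32%, those of Psmb8, Psmd2 and Psmg1, and in 8.47% of all. The interferon-stimulated response element letters GAAANNGAA were in 6 of 41, 14.6%, and in 8.57% of all. These 6 were Psmb3, Psmb4, Psmd4, Psmd9, Psme1 and Psmg4, of which only Psmg4 was called in the main fit. The windows of Psmb8 and Psmb9 do not hold these letters. The C/EBP letters TTGCNNAA were in 4 of 41, 9.76%, and in 10.8% of all.

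No match in a window says only that those letters are not in it, and a match is no proof of a site. Whether such letters bear on the change of any of these genes was not tested. The window of Psmg4, the assembly factor that fell, is shown because it holds the interferon-stimulated response element letters 15 bases after its start, in capitals in its window chr13:34162714-34163013 on the plus strand.
Psmg4: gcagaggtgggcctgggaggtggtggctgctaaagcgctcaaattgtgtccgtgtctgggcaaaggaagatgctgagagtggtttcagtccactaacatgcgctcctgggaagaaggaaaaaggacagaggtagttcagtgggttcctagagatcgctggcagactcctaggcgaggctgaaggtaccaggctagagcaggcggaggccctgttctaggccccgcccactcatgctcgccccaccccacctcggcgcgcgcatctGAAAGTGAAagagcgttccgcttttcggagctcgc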

How the data were processed

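The authors deposited 1 log2 value per probe set and array, made with RMA in Affymetrix Expression Console from 100 ng of total RNA per sample. RMA corrects background, normalises across arrays and summarises probes, so array-wide shifts are evened out. RMA settings and annotation build are not given in the sources used here. Values ran from 1.74 to 13.92. Of 28846 probe sets, 6640 controls were left out. Symbols came from the platform's gene numbers through RefSeq (GRCm38.p6): 19572 of 22206 gene probe sets had 1 symbol and 2634 none. The highest-mean probe set stood for a symbol.

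R 4.3.3 and limma 3.58.1 fitted 1 mean per group to 12 arrays, with 6 pairwise contrasts, the interaction and an F-test. P-values were adjusted (Benjamini-Hochberg) over 22206 probe sets in each contrast, and the fit was tested on simulated data. Arrays have no read depth, and their number limits precision. Errors are SE unless marked SD. Named were Psmb6 to Psmb10, Psme1, Psme2, called genes (up to 6 by size per list and contrast) and the widest change per list. The members and lists were chosen with earlier results of these data known. Alternatives were each array left out, the replicate letter as a block, further scaling, array weights, trended variances, a filter on dim probe sets, 2-group fits and a 2-fold limit.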

Additional observations from a re-analysis of the deposited data

How the results depend on the processing

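Each comparison was refitted with each of the 12 arrays left out, and under 8 other settings of the fit. The refits gave 1807 values for changes of the 13 named proteasome genes. In 1753 of them the gene kept its side of the threshold and did not reverse by more than its SE in the main fit. Most of these changes were not called in the main fit, so this count says little about how firm the calls are. Of the other values 31 lost a call, all of Psmb9 or Psmg4, while 11 gained a call and 12 reversed. All 139 medians moved by less than the spread between arrays. With single arrays left out, the number of called members ran from 0 to 1 for CSF3R_T618I against empty vector, from 1 to 3 for both against empty vector, and from 2 to 3 for both against CEBPA_V314VW, and was 2 for CSF3R_T618I against CEBPA_V314VW, 2 for any difference and 0 for the others. For both against empty vector, the count of 3 became 1, Psmb8, with the replicate letter as a block, with median centring and with only the 2 groups in the fit. For CSF3R_T618I against empty vector, the count of 0 became 2 (Psmb8, Psmb9) without dim probe sets and with trended, robust variances, and 3 (with Psma8) with array quality weights, which also gave 5 in place of 2 for CSF3R_T618I against CEBPA_V314VW, of which 1 rose (Psma5) and 4 fell. The block moved no other count by over 1.5 times, though Psmg4 then missed the threshold in both against CEBPA_V314VW (adjusted p 0.0509). Over all gene probe sets, same-letter deviations correlated at -0.25 to 0.17, above 0.1 in 4 of 18 pairs. Of 12 arrays, 3 correlated best with their own letter, so the letters were not taken as pairs in the main fit. The 2 arrays of highest background were both replicate C, and what these 2 share was not tested. Adding a 2-fold limit gave 0 in each comparison. Leaving out the 2 arrays of highest background changed no count beyond 1.5 times, but Psmb9 lost its call in both against empty vector (adjusted p 0.0864). No gene had several probe sets, so that alternative gave no value.

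Directions reversed by more than the SE of the main fit, none of them called, mostly for Psme4. With single arrays left out its change ran from -0.40 to 0.28 in CSF3R_T618I against empty vector, from -0.52 to 0.15 in CSF3R_T618I against CEBPA_V314VW, from -0.21 to 0.46 in both against CSF3R_T618I and from -0.34 to 0.34 in the interaction, each turning without replicate C of CSF3R_T618I. The first 2 were 0.28 and 0.15 without both arrays of highest background, and all 4 were 0.30, 0.072, -0.12 and -0.35 with array quality weights. Without the same array Ngly1 turned in both against CSF3R_T618I, with a range of -0.11 to 0.28. Psmb6 ran from -0.15, without replicate C of the empty vector, to 0.10 in CEBPA_V314VW against empty vector, and Psma8 from -0.31 to 0.029, without replicate A of both, in both against empty vector. The causes were not tested.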
